A study of Mus musculus with 20 samples.

Results

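Among the stromal and vascular cells isolated from interscapular brown fat of mice, a small group carried the genes of luminal epithelium, the inner cell layer of glands such as the mammary gland. The cells were chosen by their counts in the Lin- libraries, those depleted of blood-lineage cells with magnetic beads. A cell had to carry at least 5 summed counts of Epcam, Krt8, Krt18, Krt19 and Cldn4, at least 1 count of Epcam, and fewer than 1 summed count of Pecam1, Cdh5, Pdgfra and Ptprc, which mark endothelial, stromal and immune cells. The rule found 550 of the 60538 Lin- cells that passed the filters on mitochondrial share, total count and detected genes, or 0.909%, out of 110742 such cells in all 20 libraries. All 550 came from the 4 Lin- libraries of the Adrb1 line.

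The Adrb1 line consisted of female mice homozygous for a floxed Adrb1 allele (Adrb1 fl/fl), which encodes the β1-adrenergic receptor. The KO animals also carried 1 Pdgfra-CreER allele, which limits recombination to cells that express Pdgfra, and the WT animals were littermates without Cre. Both genotypes received tamoxifen. They were kept at room temperature (RT, 24 °C) or in the cold (COLD, 6 °C) for 4 days, in 1 experiment for each genotype and temperature. The other 6 Lin- libraries came from male C57 mice, with 2 experiments each at RT, in COLD, and at RT with the β3-adrenergic agonist CL316,243 (CL) at 0.75 nmol/hour for 4 days. Each library pooled the fat of several mice aged 8 to 14 weeks, so the replicate is a pool of animals. In the Adrb1 line no genotype and temperature had a second pool. The p-values across these pools therefore rest on 1 residual degree of freedom, gained by assuming that genotype and temperature act additively on the log scale. The RT libraries of the Adrb1 line were made with kit v3 and the COLD libraries with kit v2. By the paper, the treatments of this line also differed in the day of collection. Temperature, kit and day therefore cannot be told apart in any comparison below. In the same way, sex, strain background, the floxed allele and tamoxifen cannot be told apart between the Adrb1 line and the C57 mice.

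Luminal epithelial cells line ducts and alveoli, joined to each other by tight junctions and built on the keratins 8, 18 and 19. In the mammary gland they occur in a hormone-sensing form, which carries receptors for oestrogen, progesterone and prolactin and the transcription factor Foxa1, and in a secretory progenitor form, which carries the transcription factor Elf5 and the receptor Kit and makes milk proteins in lactation. An outer layer of contractile basal cells, with keratins 5 and 14, surrounds both.

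The epithelial cells were unevenly spread over the 4 libraries of the Adrb1 line. They made up 25 of 4715 Lin- cells in WT RT (0.530%, exact 95% binomial interval 0.343 to 0.782%) and 288 of 6507 in WT COLD (4.43%, 3.94 to 4.95%). They made up 77 of 2358 cells in KO RT (3.27%, 2.59 to 4.06%) and 160 of 3988 in KO COLD (4.01%, 3.42 to 4.67%). The WT RT share was the lowest and its interval lay apart from the other 3, while the KO RT and KO COLD intervals overlapped. These intervals cover counting error only. The mitochondrial limit removed 20.6% of the barcodes in WT RT and 41.3% in KO RT. In WT COLD and KO COLD it removed 3.01 and 5.23%. Without the upper limit on total count the shares of WT RT, WT COLD, KO RT and KO COLD were 0.698, 4.81, 4.51 and 4.51%. Differences between temperatures or genotypes were not tested on the shares, with 1 pool for each combination.

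In the 6 C57 Lin- libraries 0 of 42970 cells met the rule, and a count of 0 allows a share of up to 0.00698%. The mean share was 3.06% ± 1.75 (SD, n = 4) in the Adrb1 line against 0 in the C57 mice (n = 6), a difference of 3.06 percentage points. It is given with no test, since the share rests on the genes of the rule and the libraries that held the cells were known when the rule was set. Of the C57 cells 19 carried 5 or more counts of the epithelial markers, and all of these had less than 1 count of Epcam. Any count of Epcam was seen in 58 C57 cells and in 1053 cells of the Adrb1 line. The libraries of the Adrb1 line thus held the epithelial cells at shares of 0.530 to 4.43%, and the C57 libraries held no detectable cell of this kind at this depth.

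**Figure D1:**
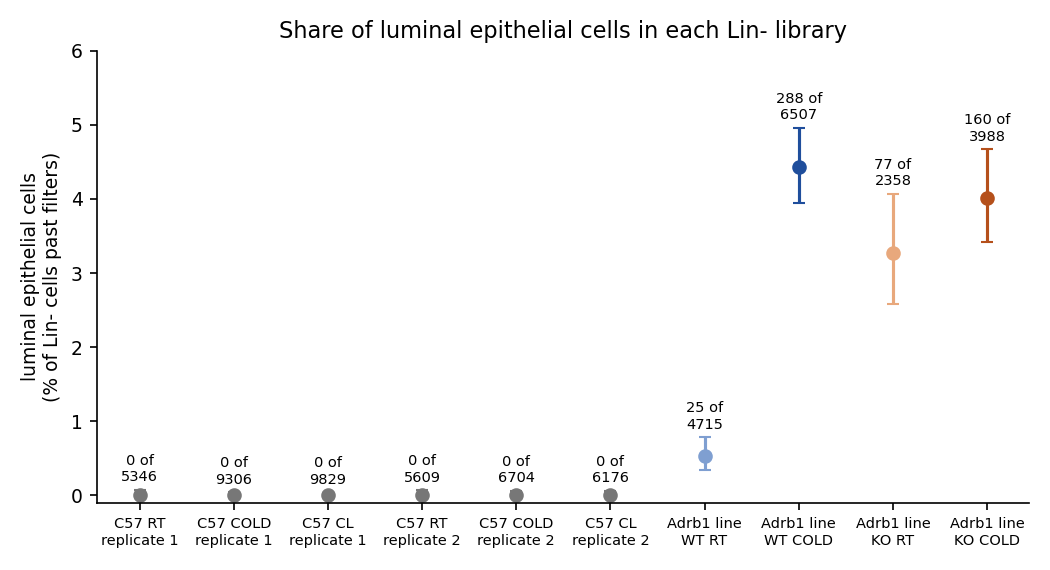
Share of Lin- cells that met the epithelial rule in each of the 10 Lin- libraries (vertical axis, percent; points with exact 95% binomial intervals, and the number of cells of each library). The 4 Adrb1-line libraries range from 0.530 to 4.43% with WT RT lowest, and the 6 C57 libraries are at 0.

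Few cells lay near the limit of the rule. Of the 550 cells 2 had a marker sum between 5 and 6, both in WT COLD, and 1 further cell there fell just below, between 4 and 5. The median marker sum was 122, 113, 109 and 152 counts in WT RT, WT COLD, KO RT and KO COLD. A further 24 cells were removed by the stromal, endothelial and immune genes, and 8, 42, 31 and 30 cells in the same order failed only the upper limit on total count. The epithelial cells carried more RNA counts than their neighbours, with median totals of 6058 to 7196 counts per library against 3214 to 3652 in the other Lin- cells. Thinned to 1000 counts per cell, the shares were 0.457, 4.11, 3.07 and 3.47%. No barcode occurred among the epithelial cells of more than 1 library. Of the 550 barcodes 82 were also present in some other library, 7 of them in the Lin+ library of the same mice.

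The label was checked against genes the rule did not use. The cells were set beside the other Lin- cells of the same 4 libraries, 16214 cells that had no Epcam and less than 1 count of the 5 markers. Levels are in counts-per-million (CPM), a gene's share of the summed counts of a cell group, and since each count is a 3′ tag they do not scale with transcript length. Because the rule split these cells, the levels are a description with no test. Over all genes with at least 10 CPM in one of the groups, 848 of 10484 (8.09%) were 4-fold or more above the other cells and 1533 (14.6%) were 4-fold or more below.

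All 21 eligible genes of a 22-gene epithelial list stood at least 4-fold above the other cells, with a median ratio of 200. Krt7, a keratin of simple epithelia, was at 1326, 1299, 1074 and 1308 CPM in WT RT, WT COLD, KO RT and KO COLD and was detected in 88% of the cells against 1.73% of the other cells. Cdh1, the adhesion protein of epithelial junctions, was at 196 CPM over the 4 libraries against 0.862 CPM in the other cells. Of the 10 eligible tight junction genes outside the rule 9 passed the same 4-fold limit. The claudins Cldn3 and Cldn7, which seal the space between epithelial cells, were at 1041 and 393 CPM against 7.30 and 2.14 CPM. The exception was Tjp1, a scaffold found at many kinds of junction, at 70.5 CPM against 58.0. The transcription factors of simple epithelia were also high: Elf3 reached 147 CPM, Ehf 89.9 CPM and Grhl2 44.6 CPM.

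The rule's own markers, given for description, reached 7004 CPM for Krt18, 6037 for Krt19, 3456 for Krt8, 2250 for Epcam and 545 for Cldn4. The other Lin- cells were themselves chosen by a low sum of these markers, so their Krt18 level was limited by that choice. Within this limit Krt18 was detected in 2.29% of the other Lin- cells of the Adrb1 line. It was at 0 in the other Lin- cells of the C57 mice. C57 cells with more marker counts were left out of that group, so this value does not show that C57 Lin- cells lacked Krt18. Whether free RNA in the droplets gave the Krt18 counts in the other cells of the Adrb1 line was not tested.

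Most genes of other cell types were low. The rule had removed cells with Pecam1, Cdh5, Pdgfra or Ptprc, so low endothelial, stromal and immune levels were in part fixed by it. The 8 adipose stromal genes, among them the collagen Col1a1 and the matrix proteoglycan Dcn, summed to 137 to 622 CPM per library against 22073 to 35699 CPM in the other cells, and all 8 were at least 4-fold below. All 8 endothelial and all 4 erythroid genes were 4-fold or more below as well. So were the 4 eligible of 8 immune genes and the 4 eligible of 7 brown adipocyte genes. The immune genes summed to 0 to 18.9 CPM against 179 to 241 CPM. Ucp1, which uncouples respiration in brown adipocytes, was at 3.37 CPM against 8.66 CPM in the other cells, so the Lin- cells of this fraction held little of it in either group. Cell cycle genes were low too, 7 of 8 being at least 4-fold below, with a list sum of 59.0 CPM against 376 CPM. Of 5 Schwann cell genes 3 were at least 4-fold below and 1 above, the transcription factor Sox10, at 31.9 CPM against 5.06 CPM. Cells with at least 3 summed counts of the stromal and mural genes Dcn, Col1a1, Col1a2, Col3a1, Gsn, Acta2 and Tagln numbered 38 (6.91%), of which 26 were in WT COLD, 9 in KO COLD, 2 in KO RT and 1 in WT RT.

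Markers of other epithelia were at low levels, some of them still above the other cells. Of 7 eligible basal genes 2 were at least 4-fold above the other cells, the keratins Krt14 at 19.9 CPM against 3.70 and Krt17 at 11.7 CPM against 2.80, and 4 were at least 4-fold below, among them the contractile gene Acta2 at 78.9 CPM against 580. The basal keratin Krt5 was at 3.03 CPM and the basal transcription factor Trp63 at 5.82 CPM. Of 4 eligible genes of skin keratinocytes 1 was at least 4-fold above, Krt15 at 10.7 CPM against 0.135, while Krt10 was at 19.8 CPM, Krt1 at 3.56 CPM, and Ivl, Dsg3 and Lor were at 0. The mesothelial genes Msln, Wt1 and Upk3b were at 0, and the only eligible gene of that list, the mucin Muc16, which other epithelia also make, was at 45.6 CPM against 0.0597. The markers outside the rule thus went with the label luminal epithelium. Since the cells were chosen on luminal keratins, they say nothing of basal cells in the fraction.

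Of the 25 genes with the largest ratio to the other Lin- cells, the first was Wfdc18, a secreted whey acidic protein family member, at 3998 CPM over the 4 libraries and 2326 times its level in the other cells. Most of these cells were from COLD, and Wfdc18 was far lower in both RT libraries, as given below. Ly6d, a surface protein anchored in the membrane by a lipid, was at 8531 CPM and detected in 90% of cells. Wfdc2, a further secreted member of the same family, was at 3466, 3880.2, 3989 and 4934 CPM in WT RT, WT COLD, KO RT and KO COLD, a narrow range. Prlr, the prolactin receptor, stood at 4184 CPM, 550 times the other cells, and was detected in 89.1% of the epithelial cells against 3.91% of the others. Aqp5, a water channel of secretory glands, was at 1271 CPM, and the iron-binding milk protein lactoferrin, Ltf, at 946 CPM. Foxa1 and Tfap2b, transcription factors of luminal and other glandular cells, were at 426 and 296 CPM, or 337 and 353 times the other cells. The rest of the 25 included the membrane protease Tmprss2 at 508 CPM, the chemokine Cxcl15 at 494 CPM and the heparin-binding growth factor Ptn at 9401 CPM.

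Among hormone receptors, Pgr, the progesterone receptor, stood at 177 CPM, 72 times the other cells. The oestrogen receptor Esr1 was at 65.0 CPM against 32.1 CPM, a ratio of 2.03, and the glucocorticoid receptor Nr3c1 was lower than in the other cells, at 31.0 against 207 CPM. In the ErbB family, which binds epidermal growth factor-like ligands, Erbb3 was at 111 CPM and 21.3 times the other cells, while Egfr was at 12.3 CPM against 118. Of the secreted Wnt ligands, Wnt4 reached 267 CPM against 4.10 CPM and Wnt7b 52.8 CPM. Milk proteins of lactation were nearly missing, with Csn1s1, Wap and Glycam1 at 0 counts, Csn2 at 3.56 CPM and Lalba at 8.63 CPM. The milk protein genes that were present were Csn3, the casein that coats micelles, at 448 CPM, Btn1a1, a protein of the milk fat globule membrane, at 74.9 CPM, and Mfge8, a further globule protein, at 1123 CPM against 245 CPM in the other cells.

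**Figure D2:**
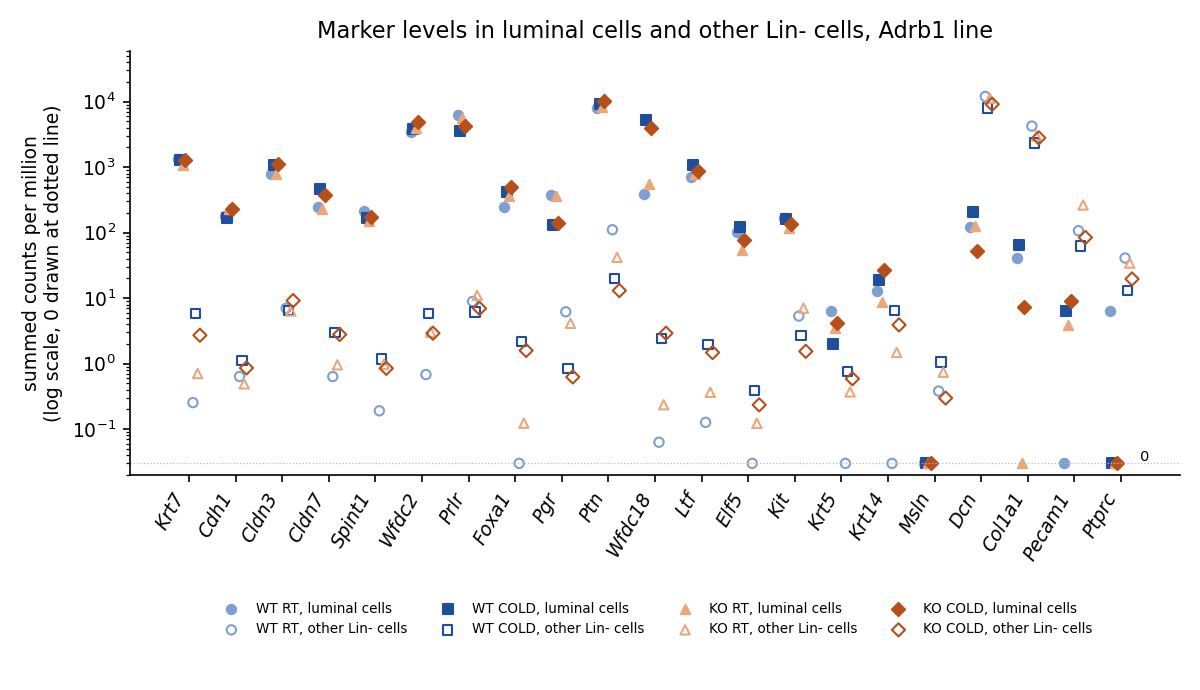
Levels of 21 genes (vertical axis, CPM, log scale, with 0 at the dotted line) in the luminal epithelial cells (filled) and the other Lin- cells (open) of the 4 Adrb1-line libraries. Epithelial and glandular genes such as Krt7 and Prlr are far higher in the epithelial cells. Dcn, Col1a1, Pecam1 and Ptprc are lower there, and Krt5 and Krt14 stay low in both. Pecam1 and Ptprc are genes by which the rule removed cells.

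The cells fell along an axis between the hormone-sensing and secretory forms. Each cell was placed by the larger of its summed counts over a hormone-sensing and a secretory gene list. The hormone-sensing list was larger in 374 cells (68.0%), the secretory list in 174 (31.6%), and 2 cells were not placed. Secretory cells were 7 of 25 in WT RT (28.0%, exact 95% interval 12.1 to 49.4%) and 108 of 288 in WT COLD (37.5%, 31.9 to 43.4%). They were 16 of 77 in KO RT (20.8%, 12.4 to 31.5%) and 43 of 160 in KO COLD (26.9%, 20.2 to 34.4%). Both forms were thus found in every library of the Adrb1 line. The intervals cover counting error over cells of 1 pool each, and the shares were not compared between temperatures or genotypes.

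The separation was not sharp. Of all cells 290 (52.7%) had at least 10 hormone-sensing counts and fewer than 3 secretory ones, and 90 (16.4%) had the reverse. A further 125 cells (22.7%) had at least 10 of both. These carried a median of 10058 counts and 3776 genes per cell, against 7042 counts and 2914.5 genes in the cells high for the hormone-sensing list alone and 3700.0 counts and 1854 genes in those high for the secretory list alone. Doublets were not called, and their part in the mixed cells was not tested.

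Since the lists placed the cells, the levels of list genes in each form are a description. Prlr was at 5167 CPM in hormone-sensing and 1790.2 CPM in secretory cells, Pgr at 225 and 60.7 CPM, and Cited1, a coactivator of oestrogen receptor, at 1553 and 587 CPM. Elf5 was at 19.6 and 294 CPM, and Kit was detected in 13.6% of hormone-sensing and 81.0% of secretory cells. Csn3 was at 38.4 and 1458 CPM. Epcam was nearly even, at 2215 and 2342 CPM. Pairs of single genes showed the same division: Elf5 was detected in 19.8% of the 388 cells with Foxa1 and in 56.8% of those without, and in 68.8% of the 192 cells with Kit and in 10.3% of those without. Nearly all cells with Pgr, 284 of 286, also had Prlr.

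With the list genes included, 86 of 9470 genes (0.908%) were at least 4-fold higher in hormone-sensing cells, again with no test. In secretory cells 376 (3.97%) were at least 4-fold higher. Outside both lists, the 10 genes with the largest ratio toward hormone-sensing cells were Hp, Defb1, Arg2, Ly6a, Gadd45g, Gsta4, Msx2, Proc, Smim3 and Cdo1. Hp, the haemoglobin-binding protein haptoglobin, was at 199 against 31.1 CPM, the antimicrobial peptide Defb1 at 264 against 41.9 CPM, and Ly6a, the surface protein Sca-1, at 2539 against 491 CPM. Toward secretory cells the 10 were Cck, Btn1a1, Tspan8, Plin2, Ccdc129, Plb1, Lcn2, Trf, Hey1 and Atp6v1b1. The peptide hormone gene Cck was at 706 against 23.5 CPM, the lipid droplet coat protein Plin2 at 545 against 26.6 CPM, and the iron carriers Lcn2 and Trf at 3546 against 197 and 2585 against 144 CPM. As the naming rule asked, all 20 had the same direction in WT COLD and KO COLD, the libraries with at least 20 cells of each form.

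**Figure D3:**
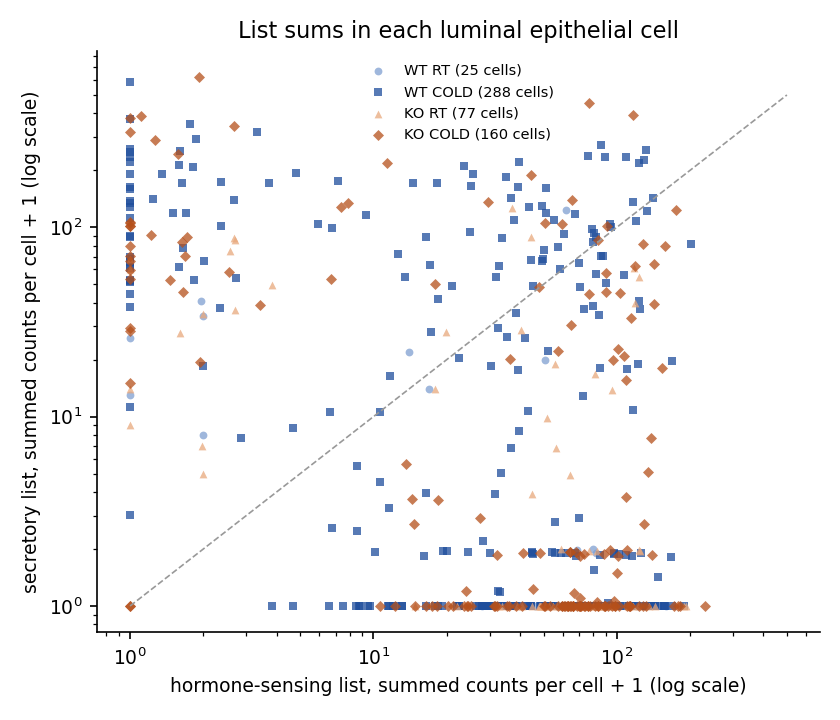
Summed counts plus 1 of the hormone-sensing list (horizontal axis) and the secretory list (vertical axis), both on log scales, for each luminal epithelial cell in the 4 Adrb1-line libraries; the dashed line marks equal sums. Most cells, 374 of 550, lie below the line, 174 lie above it, and 125 carry at least 10 counts of both lists.

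The comparison of KO with WT asks what deleting Adrb1 in Pdgfra-expressing cells did. The targeted gene was therefore examined first. In the Pdgfra-positive stromal cells of the same libraries Adrb1 had 13.0 and 46.1 summed counts in WT RT and WT COLD, or 1.72 and 3.83 CPM, and 0 in KO RT and KO COLD, where a count of 0 allows up to 1.30 and 0.550 CPM. The stromal level of Adrb1 thus went with the genotype labels. In the luminal epithelial cells Adrb1 was at 31.9 CPM in WT RT, 32.7 in WT COLD, 47.1 in KO RT and 39.8 in KO COLD, from 4.98, 65.8, 26.7 and 47.7 summed counts. Both KO values lay above both WT values, and the log2 fold change of KO over WT was 0.31 ± 0.30 (SE; edgeR adjusted p = 0.999). The receptor was detected in 18.1 to 27.3% of the epithelial cells against 0.860 to 2.15% of the other Lin- cells. Endothelial cells, taken as other Lin- cells with at least 1 summed count of Pecam1 and Cdh5, had 3.84 to 9.62 CPM in the 4 libraries. Pdgfra was not used to leave cells out of this group. The epithelial cells held the higher level of Adrb1 in each library. The sources used here do not state which part of Adrb1 the loxP sites flank. Among related receptors in the epithelial cells, Adra2a was at 17.4 CPM and Adrb3 at 0.737 CPM. Adrb1 was at 43.9 CPM in hormone-sensing and 19.9 CPM in secretory cells.

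**Figure D4:**
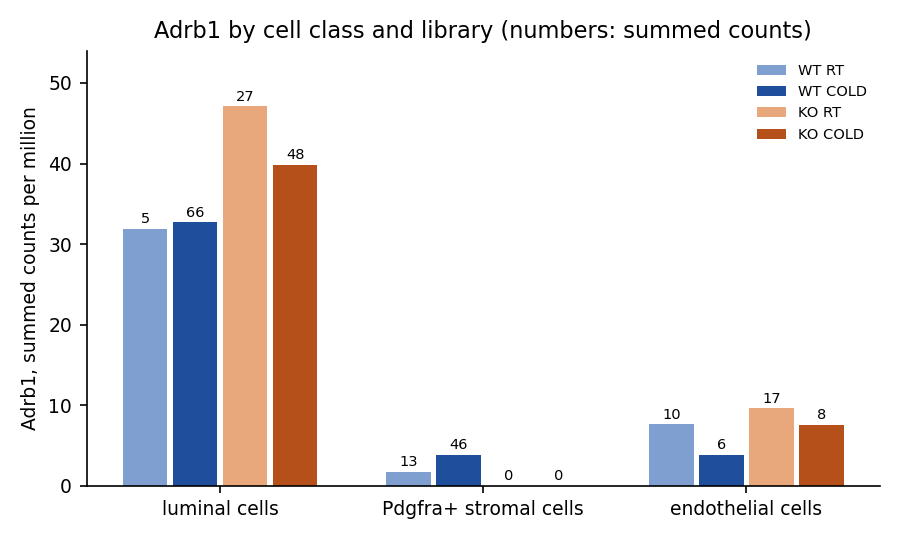
Adrb1 level (bars from 0, CPM, with the summed counts written at each bar) in luminal epithelial, Pdgfra-positive stromal and endothelial cells of the 4 Adrb1-line libraries. Both KO bars are at 0 in stromal cells, while the epithelial bars are at 31.9 to 47.1 in all 4 libraries.

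Between KO and WT, with temperature in the model, edgeR's quasi-likelihood test called 20 of 8845 genes in the epithelial cells at an adjusted p of 0.05. Of these 8 (0.0904%) were higher and 12 (0.136%) lower in KO, and 413 genes had an unadjusted p below 0.05. None of 21 epithelial, 9 hormone-sensing or 7 secretory genes was among the 20. All 4 adipose stromal genes that could be tested, Col1a1, Col1a2, Col3a1 and Dcn, were among the genes lower in KO. For Dcn (−1.27 ± 0.28, edgeR adjusted p = 0.0449) the RT libraries did not differ in that direction, with 19.4 summed counts in WT RT and 71.7 in KO RT, a log2 difference of 0.04 relative to total counts. The collagen Col3a1 was at 89.3 and 206 CPM in WT RT and WT COLD and at 0 and 49.2 CPM in KO RT and KO COLD (log2 fold change −2.43 ± 0.32, SE, edgeR adjusted p = 0.000107), and Col1a1 was at 38.3, 64.6, 0 and 7.51 CPM (−3.43 ± 0.46). The matrix genes Col6a1 and Fn1, the actin-severing protein Gsn and the lipid carrier Apod were lower as well, and Gsn was at 453 and 397 CPM in WT against 0 and 209 CPM in KO. Few cells carried these counts: Gsn was found in 1 of 25 cells of WT RT, 16 of 288 of WT COLD, 0 of 77 of KO RT and 3 of 160 of KO COLD, and Col3a1 in 1, 13, 2 and 3 cells. Without the 38 cells with stromal and mural counts, which were removed on Gsn and the collagens among others, these genes no longer passed the filter on low counts. Of the 18 genes then called, Apod was still lower in KO (−4.95, edgeR adjusted p = 3.04e-06). Before that removal Apod had 2, 91, 1 and 3 summed counts in WT RT, WT COLD, KO RT and KO COLD. In WT COLD 2 cells held 65.0% of its counts.

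The genes lower in KO also held Pdk4, a kinase that restrains glucose oxidation (−2.35, edgeR adjusted p = 0.00144), and the squamous epithelial genes Sprr1a (−1.66, adjusted p = 0.0206) and Lgals7 (−1.20, adjusted p = 0.0219). Pdk4 had 3, 136, 6 and 13 summed counts in WT RT, WT COLD, KO RT and KO COLD. Sprr1a was at 153 and 31.3 CPM in WT RT and WT COLD against 68.7 and 5.01 CPM in KO RT and KO COLD, so the range of the genotypes overlapped, and all 3 kept their calls without the 38 cells.

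Of the genes higher in KO, the heat shock protein Hspa1a was at 306 and 252 CPM in WT RT and WT COLD and at 509 and 697 CPM in KO RT and KO COLD (1.15 ± 0.21, edgeR adjusted p = 0.00768). Pcp4, which binds calmodulin, was at 51.1 and 73.5 CPM against 178 and 148.5 CPM (1.15 ± 0.23, adjusted p = 0.0202). Mycl, a transcription factor of the Myc family, was at 38.3 and 22.4 CPM against 73.9 and 60.9 CPM (1.31 ± 0.29, adjusted p = 0.0449), and the B-cell chemokine Cxcl13 was at 0 and 14.4 CPM against 3.52 and 60.1 CPM (2.02 ± 0.41, adjusted p = 0.0206). The first 3 kept their calls without the 38 cells. Cxcl13, whose values overlapped between genotypes, then no longer passed the filter. The calls depended on the setting: with genes of at least 10 counts in every library sum, edgeR called 0 genes (153 at an unadjusted p below 0.05), in hormone-sensing cells alone 0 (293), and DESeq2 on the same sums called 0 (28).

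Between COLD and RT, with genotype in the model, 1336 of 8845 genes were called in the epithelial cells (283 with DESeq2 on the same sums). Of the 1336, 596 (6.74%) were higher and 740 (8.37%) lower in COLD. Of the 1282 called genes that could also be tested in the other Lin- cells, 878 were called there in the same direction. In those cells 27% of all 14550 tested genes were called higher and 24.9% lower. Much of the change was therefore shared with the other Lin- cells. The ribosomal protein gene Rpl23a had a log2 fold change of 2.30 ± 0.19 in the epithelial cells and 2.36 in the other cells, and Gm42418, a transcript that overlaps ribosomal RNA, took 1.28 and 2.33% of all epithelial counts at RT against 0.0705 and 0.0367% in COLD, with 3.81 to 4.20% against 0.0656 to 0.0668% in the other cells. For that reason the response of the other Lin- cells is given beside the main genes, and the difference of the responses was tested. The other Lin- cells are a mixture of types. By the paper, proliferating and differentiating cells were more frequent relative to stromal cells in the cold in both genotypes. A difference of responses therefore also holds changes in the makeup of the other cells, which were not separated out. A test without one library is possible only if the genotype term is left out too, so every adjusted p given below for a fit without a library comes from a fit in which both were changed.

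Some secretory and milk genes rose in COLD. Wfdc18 was at 396 CPM in WT RT, 5244 in WT COLD, 551 in KO RT and 4002 in KO COLD, so both COLD values lay far above both RT values (log2 fold change 3.31 ± 0.21, SE, edgeR adjusted p = 1.46e-12). In the other Lin- cells it was at 0.0636, 2.40, 0.247 and 2.92 CPM, and the difference of the log2 responses was not called (−0.80, adjusted p = 0.786). Csn3 was at 179, 532, 109 and 502 CPM in the same order (2.00 ± 0.23, adjusted p = 3.54e-07). In the other cells it was at 0.127, 1.37, 0 and 1.25 CPM (3.93), and the difference was not called (−1.92, adjusted p = 0.164). Cck was at 89.3, 225, 65.1 and 305 CPM (1.97 ± 0.26, adjusted p = 3.23e-06). The iron carrier Trf was at 319, 1145, 246 and 705 CPM (1.73 ± 0.20, adjusted p = 4.44e-07), and its log2 change was nearly as large in the other cells (1.65), from 24.0 and 23.6 to 70.9 and 75.5 CPM. The level of Cck in the other cells was 6.68, 5.07, 6.05 and 4.30 CPM, and its response differed from theirs by 2.39 ± 0.31 (adjusted p = 9.21e-12 by edgeR).

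Of the 7 milk genes tested 4 rose and none fell, and of the 7 secretory genes 3 rose and none fell, with Csn3 on both lists. The third secretory gene beside Csn3 and Wfdc18 was Cd14, a receptor for bacterial lipopolysaccharide (0.83 ± 0.22, edgeR adjusted p = 0.0114, but 0.26 without KO RT). The same fit called 6.74% of all genes higher. Plin2 belonged to the genes that rose, at 108, 174, 89.8 and 230 CPM (1.18 ± 0.24, adjusted p = 0.0011 by edgeR), yet in hormone-sensing cells alone its value was −0.37, and without the KO RT library its adjusted p was 0.18. Its difference from the other cells was 0.15 and not called (adjusted p = 0.904). Ltf, a further secretory and milk gene, was not called (0.43, adjusted p = 0.127). The shares of secretory cells in the 4 libraries are given above, and their part in these rises was not tested.

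Hormone-related genes moved in both directions: of 9 tested hormone-sensing genes 3 rose and 3 fell, and of 9 hormone receptors none rose and 4 fell, where 6.74% of all genes were called higher and 8.37% lower. Pgr was at 370 CPM in WT RT and 366 in KO RT and at 131 and 141 CPM in WT COLD and KO COLD (−1.37 ± 0.21, edgeR adjusted p = 2.97e-05). It kept its call without each of the 4 libraries. In the other Lin- cells Pgr was much lower, at 0.656 to 6.17 CPM, with a log2 change of −2.74, so that the difference of the responses was positive (1.42 ± 0.35, adjusted p = 0.0016), and it turned to −0.30 when only endothelial cells were taken as the other cells.

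Cited1 rose, from 274 and 357 CPM in WT RT and KO RT to 1497 and 1455 CPM in WT COLD and KO COLD (2.27 ± 0.20). The other cells went from 12.7 and 11.5 to 32.4 and 24.9 CPM. The difference of 1.08 ± 0.32 was called (edgeR adjusted p = 0.0167), but turned in sign when only endothelial cells were taken as the other cells. That call was lost without WT RT (adjusted p = 0.31) and without KO COLD (0.074). Cited1 and Pgr therefore changed in opposite directions within the epithelial cells of both genotypes. Prlr fell, from 6222 and 5704 CPM in WT RT and KO RT to 3525 and 4298 CPM in WT COLD and KO COLD (−0.54 ± 0.16, adjusted p = 0.0222), with nearly the same value in the other cells (−0.55). Its adjusted p was 0.26 without KO RT and 0.19 without WT RT. Foxa1 was at 249, 418, 364 and 492 CPM (0.63 ± 0.21, adjusted p = 0.0394), a call lost without KO RT (0.10), KO COLD (0.13) or WT RT (0.39). In the other cells Foxa1 was at 0, 2.17, 0.124 and 1.61 CPM, and the difference, −4.36 ± 0.80, was called from these low levels (adjusted p = 5.68e-06).

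Calls among receptors and ligands of neighbouring pathways also changed when KO RT and the genotype term were left out. Areg, an ErbB ligand that oestrogen induces in mammary epithelium, was at 70.2 CPM in WT RT, 55.1 in WT COLD, 264 in KO RT and 17.5 in KO COLD (−2.33 ± 0.38, edgeR adjusted p = 7.84e-05). Without the KO RT library and the genotype term it was −0.73 with an adjusted p of 0.66. The mineralocorticoid receptor Nr3c2 (−1.72 ± 0.44, adjusted p = 0.0075) and the growth hormone receptor Ghr (−1.21 ± 0.31, adjusted p = 0.0078) fell too, with values of −2.52 and −0.55 in the other cells and no called difference, and without KO RT their adjusted p-values were 0.54 and 0.34. Adrb1 was not called, with a log2 fold change of −0.12 ± 0.34.

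Of 21 epithelial genes 7 were called higher, none lower and 14 were not called, with a median log2 fold change of 0.21 against 0.02 over all genes, of which 6.74% were called higher and 8.37% lower. Cdh1 was among those not called. Spint2, an inhibitor of membrane proteases, was at 696 and 664 CPM in WT RT and KO RT and at 1493 and 1778 CPM in WT COLD and KO COLD (1.34 ± 0.18, edgeR adjusted p = 4.94e-06). The difference from the other cells was 1.18 ± 0.32 (adjusted p = 0.00627), but −1.36 when only Pdgfra-positive cells served as the other cells. Of the 10 tight junction genes that the rule did not use 3 rose and 1 fell, beside the same 6.74 and 8.37% of all genes. The claudins Cldn7 (0.84 ± 0.21, adjusted p = 0.00674) and Cldn8 (1.26, adjusted p = 0.00635) rose with Cldn3 (0.54, adjusted p = 0.0396), while Tjp1 fell (−0.93, adjusted p = 0.0121). Tjp1 also had a lower value in COLD in the other cells (−1.77), with a called difference of 1.01 ± 0.26 (adjusted p = 0.00375), and Cldn7 a higher one (1.94), with no called difference (adjusted p = 0.15). The levels of Krt19, which chose the cells, were 4799, 6148, 4325 and 6814 CPM in WT RT, WT COLD, KO RT and KO COLD and are given with no test.

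Lists of other cells moved as well in COLD. Of 6 tested basal genes 3 rose, beside 6.74% of all genes. Acta2 went from 12.8 and 15.8 CPM at RT to 65.6 and 139 CPM in COLD (3.04 ± 0.37, SE), and in hormone-sensing cells alone its value was −0.05. It rested on few cells: of 167 summed counts in KO COLD 156 lay in the 2 cells that belonged to neither form, and in WT COLD 2 of 288 cells held 69.8% of the counts. The stromal collagens Col1a2 (4.52) and Col3a1 (2.16) were the 2 of 4 tested adipose stromal genes that were called, both higher. Tmsb4x, which binds free actin, had RT levels of 8519 and 7804 CPM and COLD levels of 23418 and 27882 CPM (1.72 ± 0.16, edgeR adjusted p = 3.92e-09). The other cells had 4024 and 4134 CPM of Tmsb4x in the RT libraries and 2576 and 2284 CPM in the COLD ones, and the difference, 2.49 ± 0.65 (adjusted p = 0.00418), kept its call without each library. Without the 38 cells with stromal and mural counts, Acta2 and these collagens no longer passed the filter in the epithelial cells, while the rise of Tmsb4x, found in 83.1 to 96.0% of the cells of each library, kept its call.

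The 10 genes with the largest called rises were led by 7 that were at 0 counts in both RT sums, among them the matrix genes Fbln1 and Loxl1, with 15 to 58 counts in COLD. The others were Lgals1, Ly6k and Sbp, of which Lgals1, a galactoside-binding lectin, had 0 and 1.76 CPM in the RT libraries and 64.6 and 103 CPM in the COLD ones, where it was found in 7 and 3 cells. The 10 largest falls were those of Gm42418, AY036118, Ptpn5, Zfp568, Adnp, Tmem86a, Dnah11, Prps1l3, Klhl11 and Ankrd52. AY036118, which like Gm42418 overlaps ribosomal RNA, had nearly the same value in the epithelial and the other cells (−3.82 and −3.79). Ptpn5, a tyrosine phosphatase gene, was at 63.8 and 29.9 CPM in WT RT and KO RT and at 3.48 and 4.17 CPM in WT COLD and KO COLD (−3.47). Tmem86a, a membrane enzyme of plasmalogen breakdown, was at 115 and 114 CPM against 13.9 and 15.0 CPM (−2.90 ± 0.31).

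The difference of the responses, epithelial minus other Lin- cells, was called for 884 of 13740 genes (123 with DESeq2 on the same sums). Of the 884, 395 (2.87%) were higher and 489 (3.56%) lower. A called difference was found for 276 of the 1336 genes called in the epithelial cells. In 98 of these 276 the other cells were called in the opposite direction, 66 falling in the epithelial cells and rising in the others. The deposited values are those left after subtraction of free (ambient) RNA, which can lower genes shared by many cells. Its part in these opposite changes was not tested. The same holds for Tmed3, the early secretory pathway genes, Bst2 and Hp below. Tmed3, a cargo receptor of the early secretory pathway that was picked after its values were seen, was at 1697 and 1729 CPM in WT RT and KO RT and at 252 and 305 CPM in WT COLD and KO COLD (−2.55 ± 0.19, edgeR adjusted p = 5.85e-11). In the other Lin- cells Tmed3 went from 380.4 and 292 CPM at RT to 553 and 595 CPM in COLD, and the difference was −3.32 ± 0.32.

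Tmed3 is one of a list of 20 genes of the endoplasmic reticulum and early secretory pathway, where secreted proteins fold. The list was chosen after values had been seen, so its counts are a description. In the epithelial cells, where 8.37% of all genes were called lower, 16 of the 20 were called lower and 1, Sdf2l1, higher (1.11, edgeR adjusted p = 0.0276), and Dnajb11, Dnajc3 and Creld2 were not called. In the other Lin- cells 15 were called higher and none lower, where 27% of all genes were called higher, and 17 differences were called, all lower in the epithelial cells, beside 3.56% of all genes. The median log2 fold change of the list was −1.04 against 0.02 over all genes in the epithelial cells, and 0.655 against 0.06 in the others. Hspa5, the main chaperone of this compartment, was at 842 and 574 CPM in WT RT and KO RT and at 143 and 144 CPM in WT COLD and KO COLD (−2.20 ± 0.21), while the RT libraries had 612 and 686 CPM in the other cells and the COLD libraries 811 and 829.8 CPM (0.38, adjusted p = 0.0865). Calr, a calcium-binding chaperone, fell from 466 and 525 to 116 and 135 CPM (−1.91 ± 0.21), and Hsp90b1, a chaperone of secreted and membrane proteins, from 376 and 405 to 135 and 132 CPM (−1.49 ± 0.21). Manf, a secreted stress-response protein, had 140.4, 66.1, 123 and 62.6 CPM (−0.96 ± 0.24, adjusted p = 0.0061, but 0.14 without KO RT) against a rise in the other cells of 1.94. Hspa5, Calr, Hsp90b1 and Tmed3 kept their calls in the epithelial cells without each of the 4 libraries.

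Bst2 and Hp moved apart between the cell groups. Bst2, an antiviral membrane protein induced by interferon, was at 159.5, 66.6, 173 and 38.4 CPM in WT RT, WT COLD, KO RT and KO COLD (−1.69 ± 0.25, edgeR adjusted p = 1.6e-05). In the other cells it was at 189.8, 626, 202 and 1173 CPM, and the difference was −3.81 ± 0.34. Hp was at 249, 108, 345 and 116 CPM in the epithelial cells (−1.35 ± 0.22, adjusted p = 5.47e-05) and at 0.382, 106, 1.36 and 20.6 CPM in the others, a difference of −7.40 ± 0.35. Without KO RT the epithelial changes of Bst2 and Hp were −1.43 and −1.04, with adjusted p-values of 0.075 and 0.073. Of 10 interferon genes 4 differences were called, all lower, beside 3.56% of all genes. Members of the list also went the other way: Ifi27l2a rose in the epithelial cells (4.00, adjusted p = 8.43e-05 by edgeR), from 3 and 0 counts at RT to 64 and 97 in COLD, and was detected in only 2.67% of hormone-sensing and 3.45% of secretory cells, and its difference was not called (1.13, adjusted p = 0.646).

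In the other direction, the called differences among genes with at least 10 counts in every sum were led by mitochondrial transcripts. The cytochrome oxidase gene mt-Co3 was at 95.7, 459, 104 and 851 CPM in the epithelial cells of WT RT, WT COLD, KO RT and KO COLD and at 867, 187, 760.0 and 171 CPM in the others (4.99 ± 0.34, edgeR adjusted p = 1.62e-43). It was detected in only 16.0, 11.8, 3.90 and 15.0% of the epithelial cells and 19.9, 4.28, 15.5 and 3.72% of the others. The genes mt-Nd4, mt-Cytb, mt-Co2, Lars2 and mt-Co1 followed, down to 3.40 for mt-Co1. Lars2 is not itself a mitochondrial transcript. The mitochondrial share of all counts was 0.280 and 0.212% at RT and 0.255 and 0.420% in COLD in the epithelial cells, against 0.932 and 0.936% and 0.155 and 0.134% in the others. This share was taken after the subtraction of ambient RNA, so it depends on that step and cannot be read as RNA quality alone. Its part in the differences was not tested. Further, 6 of 11 genes of a list of immediate early and stress genes had called differences, all higher in the epithelial cells, where 2.87% of all genes were. The 6, Atf3, Junb, Ier2, Fosb, Egr1 and Zfp36, are immediate early genes, which respond within minutes to stimuli and to tissue dissociation. The immediate early genes Fos, Jun and Dusp1 of the list were not called, nor were its heat shock genes Hspa1a and Hspa1b. Atf3 was at 2387, 2617, 3035 and 2509 CPM in the epithelial cells of WT RT, WT COLD, KO RT and KO COLD and at 503, 202, 495 and 188 CPM in the others (1.38 ± 0.37). The epithelial level was thus nearly even while the level of the other cells was lower in COLD. Without the WT COLD library only Ier2 and Zfp36 kept the call (edgeR adjusted p = 0.013 and 0.0011). Ptn likewise differed through the other cells, with 8002, 9365, 8189 and 10206 CPM in the epithelial cells against 111, 20.1, 42.0 and 13.1 CPM (2.46 ± 0.52, adjusted p = 0.000167). The 10 largest called differences upward, among them the mast cell proteases Cma1, Cpa3 and Mcpt4, belonged to genes at 0 in both RT sums of the epithelial cells, with 2 to 40 counts in COLD. Without the 38 cells with stromal and mural counts, the differences of Tgfbi, Fbln1, Plau, Vcan and Ecm2 among these were no longer called (edgeR adjusted p = 0.0607 to 0.432). The 10 largest downward were Hp, Hcar2, Sprr1a, Stac2, Clca3a2, Serpinb5, Prom2, Cks2, Ttc6 and Timp1. In the other cells Hcar2, Sprr1a, Clca3a2, Serpinb5, Prom2 and Ttc6 were at 0 to 1.97 CPM. Serpinb5 was at 57.4, 95.4, 72.2 and 65.9 CPM in the epithelial cells of WT RT, WT COLD, KO RT and KO COLD. Prom2 was at 70.2, 61.6, 75.7 and 80.9 CPM there. The difference of Stac2 turned in sign in hormone-sensing cells alone, as given below.

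**Figure D5:**
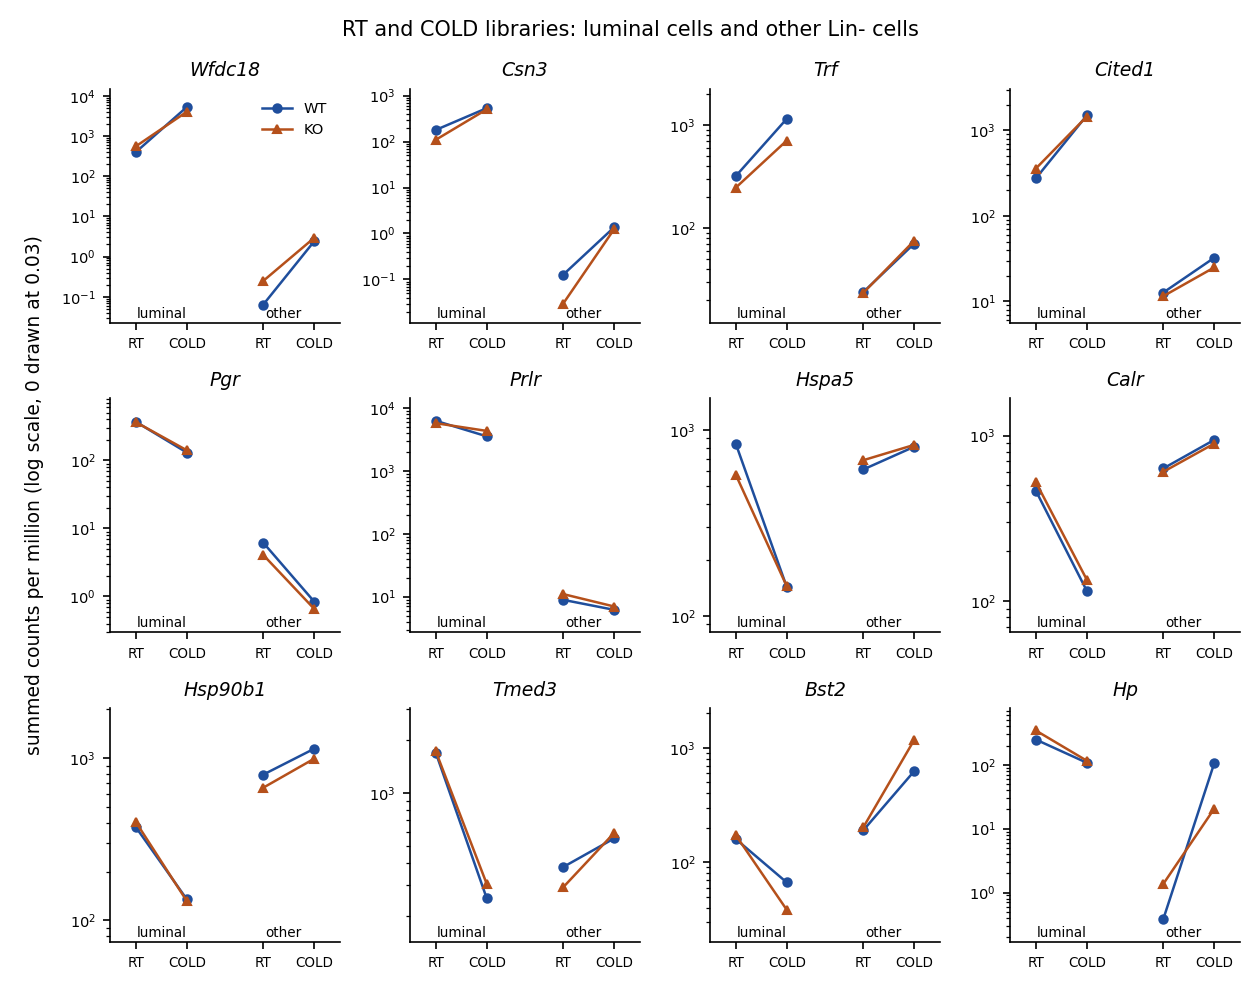
Level at RT and in COLD (vertical axes, CPM, log scale, 0 drawn at 0.03) of 12 genes in the luminal epithelial cells and the other Lin- cells, WT as blue circles and KO as orange triangles. Wfdc18, Csn3, Trf and Cited1 rise and Pgr and Prlr fall in the epithelial cells of both genotypes, while Hspa5, Calr, Hsp90b1, Tmed3, Bst2 and Hp fall in the epithelial cells and are level or higher in the others.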

How the data were processed

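Single-cell RNA was measured in 20 libraries (10x Genomics). The authors aligned reads to mm10 with Cell Ranger 3.0.1, per the submitters' processing notes, and removed ambient RNA with SoupX, taking Fabp4 and Car3 as genes that other cells do not express. The deposited values are estimated counts per gene and cell, not whole after this subtraction and not scaled. The subtraction can lower genes shared by many cells. Kept cells had under 10% mitochondrial counts, fewer than 15000 counts and at least 500 genes. No doublet caller was run. No deposited column was left unassigned.

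Counts were summed per library and cell group, rounded to whole numbers and tested with edgeR 4.0.16 (R 4.3.3; glmQLFit, glmQLFTest, TMM, filterByExpr, Benjamini-Hochberg 0.05), with genotype and temperature as terms. The difference of responses was fitted with library as a block over both cell groups. A fold change of 4 and a minimum of 10 CPM described levels. DESeq2 1.42.0, size factors, other count filters, thinning, other comparison cells and leaving out each library were alternatives. Those restricting the fit to hormone-sensing cells, to cells with fewer than 3 stromal and mural counts or to genes with 10 counts in every sum, and those dropping the genotype term, were added after seeing the data. The scripts were tested on simulated data. The epithelial sums held 156105 to 2013070 counts, so 3 counts equal 1.49 to 19.2 CPM.

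Members and gene lists (263 genes in 27 lists) were chosen with earlier results of these data known. Genes named were those of the lists, the 25 with the largest level ratio (at least 100 CPM, detected in 20% of cells of each Adrb1-line library), up to 10 called genes per direction with the largest change that moved alike in both library pairs, and the 10 with the largest ratio between the forms. Tmed3 and the endoplasmic reticulum list fall outside this rule. A few genes of the lists are not reported here.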

Additional observations from a re-analysis of the deposited data

Results flagged for a closer look

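The Lin+ libraries, which the comparisons above do not use, held a few cells that met the same rule. They were 0.0943, 0.171, 0.0905 and 0.199% of the cells of WT RT, WT COLD, KO RT and KO COLD, 26 of 17095 cells together, against 0 of 33109 cells in the C57 Lin+ libraries.

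The COLD response differed between the epithelial and the other Lin- cells for 884 genes by the test of the difference itself (edgeR). Bst2 (−3.81) and Hp (−7.40) are log2 differences of this kind, in which the level fell in the epithelial cells and rose in the others.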

How the results depend on the processing

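No paired analysis was possible because the groups of libraries compared (genotypes, temperatures) share fewer than 2 replicate numbers. The library term in the difference of responses pairs cell groups within a library. The share difference between the lines was 2.60 to 3.90 points without each library. For COLD against RT, the number of called genes was 283 with DESeq2, 570 after thinning, 842 for genes with at least 10 counts in every sum, and 219 (without KO RT) to 1295 without each library and the genotype term. Thinning left 2842 genes to test in this comparison and the limit of 10 counts left 2975, against 8845 in the main fit. With KO against WT the number of called genes was 32 with no filter, 6 for cells with a marker sum of at least 10 and 6 after thinning. It was 0 for genes with 10 counts in every sum, 0 in hormone-sensing cells alone and 0 with DESeq2. For the difference of responses it was 123 with DESeq2, 255 after thinning, 475 against endothelial cells only, and 312 (without KO RT; 363 without WT COLD) to 923 without each library and the genotype term. The other settings stayed within 1.5 times of the counts in the report. Values of single genes turned in sign for Plin2 (−0.37), Cxcl14 (−0.39) and Acta2 (−0.053) in hormone-sensing cells alone. The difference of Stac2 turned in the same cells (1.62). Against endothelial cells the differences of Cited1 (−1.52), Pgr (−0.30) and Krt19 (−2.04) turned, and against Pdgfra-positive cells that of Spint2 (−1.36). The difference of Areg turned to 0.87 without KO RT or KO COLD, a value with no test. Without KO RT and the genotype term it was 0.49. It kept its sign, at −4.24, without WT RT or WT COLD. The difference of Acta2 turned to −0.97 without the 38 cells with stromal and mural counts, a setting chosen after seeing the data. Values counted as unchanged kept their direction and whether they were called. Where a setting gave no adjusted p, they kept their direction, and those without a library also lay within the SE of the main value. Of 1936 values for 121 genes, 1440 were unchanged in this sense, 224 lost the call, 260 moved and 12 turned in sign. The cause was not tested. WT RT, with 25 cells, limits the depth at RT.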
